A study of Homo sapiens with 15 samples.

Results

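The genes described here encode the subunits of the mitochondrial oxidative phosphorylation system. They were found by symbol: every gene whose annotated symbol began with NDUFA, NDUFB, NDUFC, NDUFS, NDUFV, UQCR, COX4, COX5, COX6, COX7, COX8 or ATP5, together with the SDH genes and CYC1, and without the NDUFAF assembly factors. Of 12149 genes with a probe set of their own on the array, 72 met this rule. They comprise 31 subunits of complex I, 3 of complex II, 7 of complex III, 12 of complex IV, 16 of complex V, and 3 genes that are no subunit but carry such a symbol: the ATP synthase inhibitor ATP5IF1, the supercomplex factor COX7A2L and the pseudogene ATP5MC2P1. Of the 72, 71 passed the filter on low values and were tested. The exception was COX7A1, the heart and muscle form of a complex IV subunit, which lay between 6.72 and 6.87 on the log2 scale in the T4R samples. SDHB and the subunits encoded in the mitochondrial genome were not analysed here.

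The samples are HMT3522 breast epithelial cells grown in 3D laminin-rich extracellular matrix. S1 is the nonmalignant line of the series (3 samples). T4 is its malignant counterpart (3 samples). T4R stands here for 9 T4 samples labelled as reverted, each with another agent: GM6001 (an MMP inhibitor), an inhibitor of MMPs and ADAMs, TNF protease inhibitor–2, PD98059 (against MAPK signalling), LY294002 (against PI3K), dominant-negative Rap1, Tyrphostin AG 1478 and mAb225, which both target EGFR, and AIIB2, which targets β1-integrin. S1 and T4 are 1 cell line each, so what sets malignant from nonmalignant cells and what sets these lines apart cannot be told apart. No source used here gives doses, times or which samples received vehicle. With 1 sample per agent, a single agent has no replicate, and T4R was tested as 1 group.

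Oxidative phosphorylation is the pathway by which mitochondria turn electrons from nutrients into ATP. Complex I takes electrons from NADH and complex II takes them from succinate, complex III passes them to cytochrome c, and complex IV passes them to oxygen. Complexes I, III and IV pump protons, and complex V, the ATP synthase, uses the return flow of protons to make ATP. Most subunits are encoded in the nucleus, and their assembly also needs subunits encoded in mitochondria.

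The values are deposited log2 expression levels from 2 array types, held in 2 tables of 8 and 7 samples. GM6001, MMPs and ADAMs, and LY294002 are in the first, beside S1 samples 1 and 2 and all of T4. The other 6 agents are in the second, beside S1 sample 3. Every difference below comes from 1 limma fit over the 15 samples with the table as a term, and is given on the log2 scale with its standard error (SE) and a p-value adjusted over 9111 genes. A gene passed the test where that p was under 0.05. The table term itself passed for 25 of the 71 genes, where 17.9% of all genes tested passed, and no T4 sample lies in the second table, so T4 is set against the agents of that table only through this term. Levels of single samples are deposited values without this term unless stated. Whether ranges of samples overlap was read from these levels, which sets both array types side by side. Whether the samples within a group are separate cultures is not stated, so the p-values measure only the spread from sample to sample, which may be technical. The 3 groups share 1 estimate of that spread, and in T4R it also holds the differences between agents. Those differences therefore enter the p-values of T4 against S1 too. S1 sample 3 differed from the other S1 samples by at least 2-fold at 558 and 653 genes, against 16 between those 2. T4 sample 3 differed from the other T4 samples at 359 and 431 genes, against 6 between those. Among the genes described here, 5 and 10 differed that much in the first case and 0 and 1 in the second. The basal keratins KRT5 and KRT14 lay at the 99.9th and 100th percentile of all genes, and of the luminal keratins KRT18 lay at percentile 95.2, KRT8 at 82.8 and KRT19 at 2.9. The means of 4 leukocyte, 4 endothelial and 3 adipocyte markers lay between 6.75 and 7.31 in every sample. The mean of 5 fibroblast markers was 7.315 to 7.348 in S1, 7.395 to 7.563 in T4 and 7.491 to 7.957 in T4R. Of these 5, COL1A1 lay at percentile 80.6, DCN at 54.4, COL1A2 at 37.9, PDGFRB at 36 and LUM at 0.1. The part of the cells that these markers could stand for in the results below was not tested. In bulk RNA of this kind, fewer cells of a type and less RNA per cell cannot be told apart.

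T4 cells expressed much of the pathway below S1. Of the 71 genes, 31 were lower in T4 and 1, NDUFB3, was higher, whereas 12.3% of all genes tested were lower, 14.6% were higher and 26.9% passed in either direction. The median difference was -0.39, against 0.0072 for all genes tested, and 63 of the 71 differences were below zero. All 3 T4 samples lay below all 3 S1 samples in 22 of the genes, which is 31% of them, where 17.5% of all genes did so. They lay above in 2, NDUFV2 and NDUFB3, against 19.7% of all genes. Complex III had the largest median shift, -0.65, and complex I the smallest, -0.22, with -0.45 for complex II, -0.38 for complex IV and -0.46 for complex V. When the fit was restricted to the first array type (2 S1 and 3 T4 samples), 41 genes were lower and 1 higher, against 14.7% and 16.1% of all genes. Without S1 sample 2 the count of lower genes was 20, and without T4 sample 3 the 1 higher gene did not pass. In these fits 18.5% and 22.9% of all genes passed in either direction. With dominant-negative Rap1 and the samples numbered 3 of S1 and T4 left out together, 39 genes were lower, where 34% of all genes passed in either direction, and NDUFB3 did not pass as higher.

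**Figure D1:**
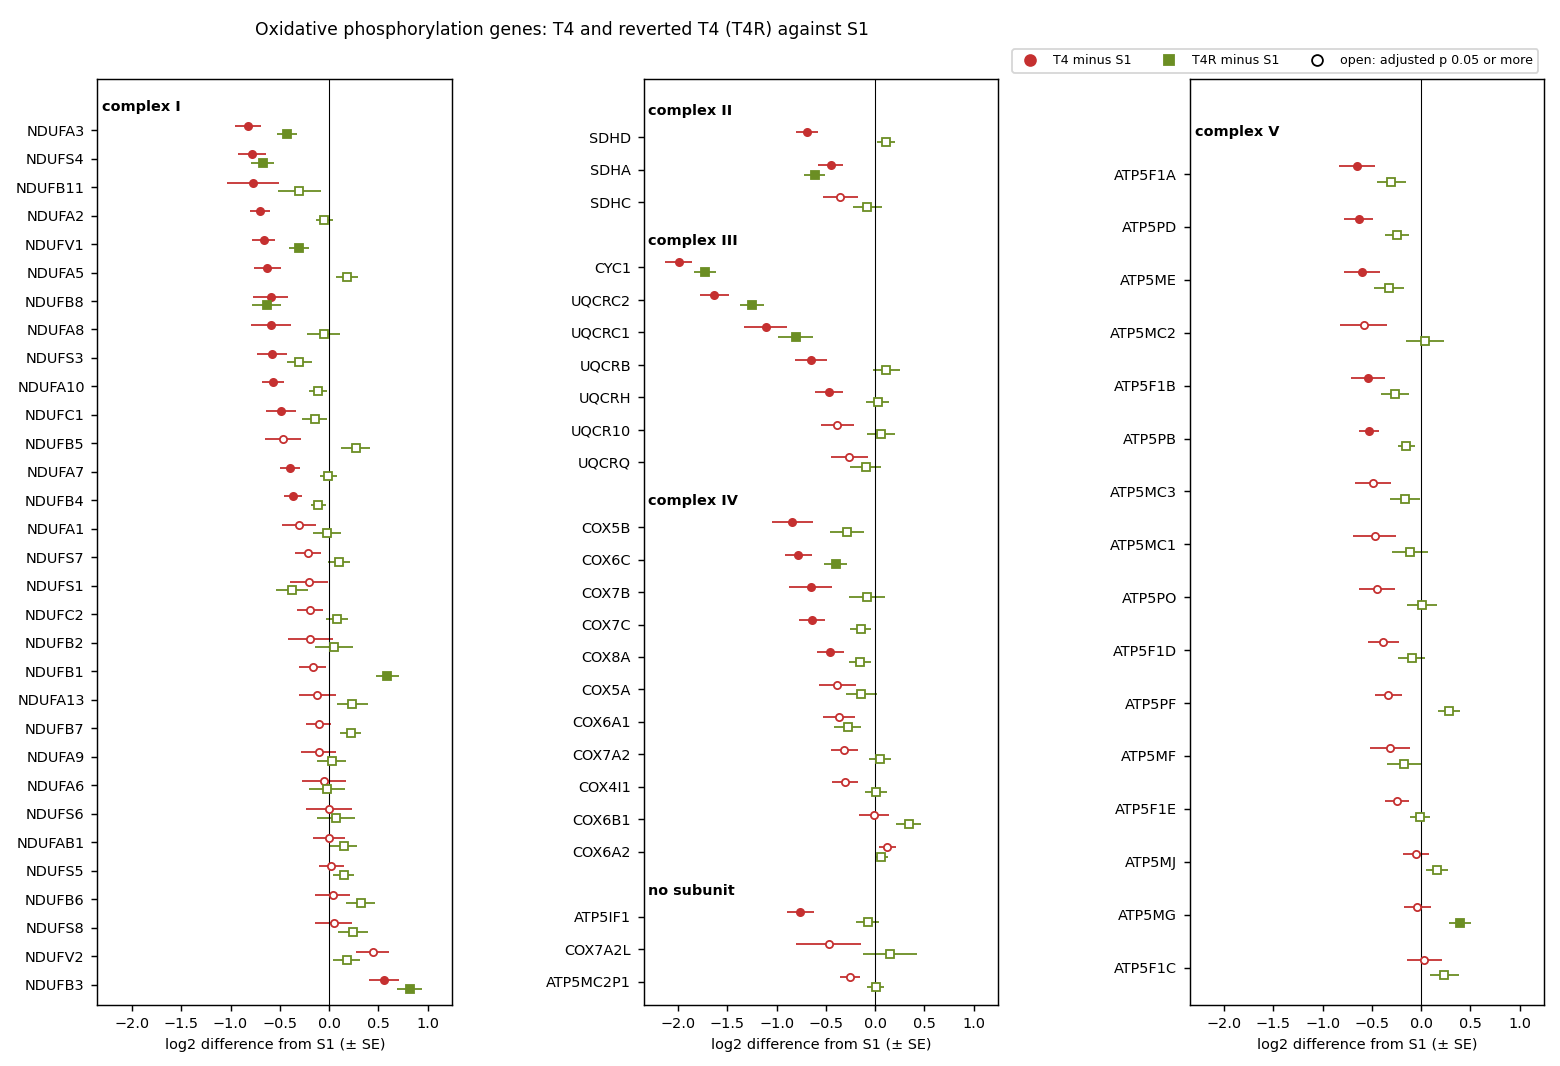
Differences from S1 on the log2 scale, with SE, for the 71 genes tested, grouped by complex: red circles show T4 (3 samples against 3), green squares T4R (9 against 3), and open symbols mark an adjusted p of 0.05 or more. Most red points lie left of zero (63 of 71), the green points lie around zero with a median of -0.02, and CYC1, UQCRC2 and UQCRC1 lie left of zero in both.

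Complex III showed the largest differences. The complex carries electrons from ubiquinol to cytochrome c. Its 2 large core proteins, UQCRC1 and UQCRC2, hold the complex together on the matrix side, and CYC1, cytochrome c1, is one of its electron carriers. CYC1 measured 11.45, 11.42 and 11.09 in S1 and 9.34, 9.31 and 9.60 in T4. In T4R it ranged from 9.27 over a median of 9.50 to 9.82, so that T4R overlapped T4 and not S1. The gene fell by 1.99 ± 0.14 in T4 (3.98-fold, adjusted p = 5.18e-07), and the T4R minus S1 difference was -1.73 ± 0.11 (adjusted p = 3.58e-07). The T4R minus T4 difference of CYC1, 0.27 ± 0.13, did not pass (adjusted p = 0.187).

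UQCRC2 followed the same order of groups. It measured 12.08, 12.15 and 11.60 in S1, 10.51, 10.46 and 10.21 in T4, and 10.29 to 10.82 in T4R with a median of 10.65. In these deposited levels T4 and T4R again overlapped each other and neither reached S1. After removal of the table term they did not overlap: T4R lay 0.15 to 0.61 above the T4 mean, and the highest T4 sample 0.11 above it. The differences were -1.63 ± 0.15 for T4 against S1 (adjusted p = 6.32e-06) and -1.25 ± 0.12 for T4R against S1 (adjusted p = 1.32e-05), and T4R minus T4 was 0.39 ± 0.14 (adjusted p = 0.077). The other probe set of UQCRC2 gave -1.94 for T4 minus S1 and -1.43 for T4R minus S1. Its partner UQCRC1 was nearly constant in S1, at 12.71, 12.67 and 12.67, and measured 11.63, 11.80 and 11.36 in T4. T4R spread from 11.28 over a median of 11.83 to 12.31, the lowest with dominant-negative Rap1 and the highest with AIIB2. UQCRC1 fell by 1.11 ± 0.22 in T4 (adjusted p = 0.00194), and T4R minus S1 was -0.81 ± 0.18 (adjusted p = 0.00514).

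For the 4 small subunits UQCRB, UQCRH, UQCRQ and UQCR10, T4R minus S1 lay between -0.10 and 0.11, with adjusted p of 0.614 or more. UQCRB, which binds ubiquinone, measured 12.09, 12.06 and 11.004 in S1 and 11.26, 11.20 and 11.18 in T4. T4R lay at 11.52 to 12.01, median 11.68, above every T4 sample. S1 sample 3, on the second array type, was the lowest of all 15. With the table in the fit, UQCRB was -0.65 ± 0.17 in T4 against S1 (adjusted p = 0.0103) and 0.76 ± 0.15 in T4R against T4 (adjusted p = 0.00518), which left 0.11 ± 0.14 between T4R and S1 (adjusted p = 0.614). UQCRB has another probe set that gave -1.65, 1.10 and -0.56 for the same 3 comparisons. The last of these opposes the value of the probe set used (adjusted p over all probe sets = 0.0527), so the sign of the T4R minus S1 difference is uncertain. UQCRH, the hinge protein, also fell in T4 (-0.47 ± 0.15, adjusted p = 0.0281) and was higher in T4R than in T4 (0.49 ± 0.13, adjusted p = 0.0254). UQCRQ had the smallest T4 minus S1 difference of the complex, -0.26 ± 0.19 (adjusted p = 0.348). It measured 11.01, 11.16 and 11.15 in S1, 10.89, 10.87 and 11.18 in T4, and 10.36 to 11.28 with a median of 10.92 in T4R, and the 3 groups overlapped.

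Promoter sequence was read for the members that RefSeq's table holds (GRCh38.p14): 59 of the 72, which leaves out CYC1 and UQCRB. Windows ran from 250 bases before to 50 after each gene's start and were searched on both strands for the motif of nuclear respiratory factor 1 (NRF1), which is GCGC, any base and TGCGC, an ETS motif of the GABPA kind, CCGGAAGT, and the oestrogen-related receptor motif TCAAGGTCA. None overlapped another in the sequences shown. Shown here are the 250 bases upstream of both core proteins of complex III, which were both lower in T4 and T4R than in S1, with motif letters in capitals, 5′ to 3′. The coordinates are those of the bases printed. The UQCRC1 stretch (chr3:48609647-48609896, minus strand) holds 1 NRF1 motif, starting 47 bases before the gene's start, and the UQCRC2 stretch (chr16:21953111-21953360, plus strand) holds none of the 3.
UQCRC1: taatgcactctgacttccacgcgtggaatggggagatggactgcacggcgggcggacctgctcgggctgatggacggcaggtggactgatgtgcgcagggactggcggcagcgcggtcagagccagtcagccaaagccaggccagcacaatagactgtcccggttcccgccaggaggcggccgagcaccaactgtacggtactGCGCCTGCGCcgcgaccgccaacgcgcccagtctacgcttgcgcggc
UQCRC2: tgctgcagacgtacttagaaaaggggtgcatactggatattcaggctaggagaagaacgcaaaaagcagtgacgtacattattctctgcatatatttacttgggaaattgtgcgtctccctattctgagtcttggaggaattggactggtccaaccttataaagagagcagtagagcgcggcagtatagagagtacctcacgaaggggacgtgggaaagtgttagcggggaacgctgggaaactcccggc
The NRF1 motif was found in 12 of the 59 member promoters, 20.3%, in 11.5% of the promoters of genes tested and in 6.28% of all promoters of this length. The ETS motif was found in 8, 13.6%, against 8.12% and 4.44%, and the oestrogen-related receptor motif in 1. Among the members that were lower in T4, 7 of 27 windows held the NRF1 motif (25.9%), and among those not called, 5 of 31 (16.1%). None of 10 complex IV windows held it. A match is a match of letters and no evidence of binding.

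Complex II, succinate dehydrogenase, also feeds the citric acid cycle, and 2 of its 3 measured genes were lower in T4 than in S1. SDHA, the flavoprotein that oxidises succinate, measured 9.94, 9.97 and 10.49 in S1, 9.62, 9.39 and 9.78 in T4, and 9.45 to 9.90 in T4R with a median of 9.59. All T4 and T4R samples lay below all S1 samples. SDHA was -0.45 ± 0.13 in T4 against S1 (adjusted p = 0.0191) and -0.61 ± 0.11 in T4R against S1 (adjusted p = 0.00115), with -0.16 ± 0.12 between T4R and T4 (adjusted p = 0.41). The T4 call was lost with only the S1 and T4 samples in the fit (adjusted p = 0.123), on the first array type alone (adjusted p = 0.0523) and without T4 sample 2 (adjusted p = 0.0757).

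SDHD, a membrane anchor of the complex, measured 10.27, 10.56 and 9.85 in S1 and 9.82, 9.83 and 9.55 in T4. In T4R it lay at 10.33, 10.65 and 10.67 with the 3 agents of the first table, and between 9.85 and 10.02 with the 6 agents of the second, where S1 sample 3 was 9.85. Every T4R sample exceeded every T4 sample. SDHD was -0.70 ± 0.11 in T4 against S1 (adjusted p = 0.000559), and T4R was 0.81 ± 0.10 above T4 (1.75-fold, adjusted p = 0.000256) and 0.11 ± 0.09 from S1 (adjusted p = 0.431). Within the first table the T4R minus T4 difference was 0.82 ± 0.13 (adjusted p = 0.0081). Its table term, -0.61, was among those that passed (adjusted p = 0.00143). SDHC, the other anchor, did not pass: it measured 10.87, 11.09 and 10.04 in S1, 10.62, 10.38 and 10.35 in T4, and 10.21 to 10.91 with a median of 10.46 in T4R (T4 minus S1 -0.35 ± 0.18, adjusted p = 0.156). Its other probe set did pass, with -0.49 (adjusted p over all probe sets = 0.0132). That probe set also passed in T4R against T4, with 0.51 (adjusted p over all probe sets = 0.0126), where the one used gave 0.28 (0.369). Probe sets that SDHA, SDHC and SDHD share with pseudogenes were left out, but near-identical copies can still contribute to those used.

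Both measured complex II genes with a promoter entry held motifs, and their upstream sequences are shown because SDHD passed in T4R against T4 and SDHA did not; whether the 2 genes differed from each other in T4R was not tested. The SDHD stretch (chr11:112086623-112086872, plus strand) has an NRF1 motif starting 110 bases and an ETS motif starting 78 bases before the gene's start, and an oestrogen-related receptor motif lies 11 bases after the start, outside these coordinates. The SDHA stretch (chr5:218070-218319, plus strand) has 4 NRF1 motifs, starting 166, 117, 68 and 19 bases before the start.
SDHD: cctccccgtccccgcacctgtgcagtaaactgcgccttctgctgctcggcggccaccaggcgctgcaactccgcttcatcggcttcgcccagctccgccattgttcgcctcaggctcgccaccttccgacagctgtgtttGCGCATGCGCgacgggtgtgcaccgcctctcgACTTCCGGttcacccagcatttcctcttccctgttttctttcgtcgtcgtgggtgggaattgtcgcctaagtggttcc
SDHA: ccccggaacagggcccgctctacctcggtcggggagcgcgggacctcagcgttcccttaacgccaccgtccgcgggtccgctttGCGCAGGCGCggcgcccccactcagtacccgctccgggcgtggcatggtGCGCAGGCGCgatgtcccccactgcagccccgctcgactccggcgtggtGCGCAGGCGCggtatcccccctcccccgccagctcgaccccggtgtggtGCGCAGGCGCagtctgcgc
Both SDHD and SDHA were lower in T4 than in S1. Matches of these motifs also lay in genes that were not called, such as ATP5F1C (NRF1 motif, T4 minus S1 0.03). UQCRC2, which held none of them, was lower in T4 (-1.63). Whether the motifs go with the differences was not tested.

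Complex I has a core that carries flavin and iron-sulfur clusters and a shell of accessory subunits needed for assembly and stability. Of its 6 core genes measured, 2 were lower in T4, NDUFV1 (-0.66 ± 0.12, adjusted p = 0.00126), which binds NADH, and NDUFS3 (-0.58 ± 0.15, adjusted p = 0.0133). NDUFV2, the neighbour of NDUFV1 in the NADH-binding module, had a difference of 0.44 ± 0.16 that did not pass (adjusted p = 0.0611). Of the 25 accessory genes, 11 were lower and 1 was higher. The other 17 genes of the complex did not pass.

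NDUFA3, an accessory subunit of the membrane arm, had the largest difference of the complex. It measured 9.92, 10.01 and 9.61 in S1, 8.97, 9.13 and 9.35 in T4, and 8.95 to 9.64 with a median of 9.28 in T4R, and T4 did not overlap S1. The differences were -0.82 ± 0.13 for T4 against S1 (adjusted p = 0.000426), 0.40 ± 0.12 for T4R against T4 (adjusted p = 0.0386) and -0.43 ± 0.11 for T4R against S1 (adjusted p = 0.00994). NDUFS4, an accessory subunit beside the NADH-oxidising module, measured 10.30, 10.46 and 9.98 in S1, 9.57, 9.63 and 9.56 in T4, and 9.10 to 9.71 with a median of 9.63 in T4R. T4 and T4R each lay wholly below S1. NDUFS4 was -0.78 ± 0.14 in T4 (adjusted p = 0.00109) and -0.67 ± 0.11 in T4R (adjusted p = 0.000971) against S1, and T4R minus T4 was 0.11 ± 0.13 (adjusted p = 0.639). NDUFB11 measured 10.84, 10.85 and 9.85 in S1, 9.84, 10.03 and 9.55 in T4, and 9.52 to 10.53 with a median of 10.20 in T4R. Its S1 sample 3 lay within the T4 range, and its difference of -0.77 ± 0.26 (adjusted p = 0.0437) was lost without any 1 of S1 samples 1 and 2 and T4 samples 1 and 3 (adjusted p = 0.182, 0.187, 0.0814 and 0.138), and without any 1 of 4 T4R samples (adjusted p up to 0.0536).

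Other accessory genes were above T4 in the T4R samples. NDUFA5, of the peripheral arm, measured 10.78, 11.15 and 10.24 in S1 and 10.43, 10.26 and 10.20 in T4. T4R lay at 10.95, 11.12 and 11.17 in the first table and at 10.28 to 10.75 in the second, so the tables differed (table term -0.59, adjusted p = 0.0031). The gene was -0.62 ± 0.13 in T4 against S1 (adjusted p = 0.00361) and 0.81 ± 0.12 in T4R against T4 (adjusted p = 0.000845), and 0.78 ± 0.12 in the first table alone (adjusted p = 0.00683). NDUFB5, of the membrane arm, measured 12.37, 12.66 and 11.30 in S1, 11.99, 11.95 and 11.53 in T4, and 12.03 to 12.51 with a median of 12.11 in T4R. All T4R samples exceeded all T4 samples, by 0.74 ± 0.17 in the fit (adjusted p = 0.0107), and the T4 minus S1 difference of -0.47 ± 0.18 did not pass (adjusted p = 0.0719). Without the table term and with both tables quantile-normalized together, the T4R calls of SDHD, NDUFA5 and NDUFB5 were lost (adjusted p = 0.0724, 0.0619 and 0.162).

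A pair of accessory genes of the membrane arm stood above S1. NDUFB1 measured 11.41, 11.79 and 10.99 in S1, 11.22, 11.33 and 11.31 in T4, and 11.79 to 12.05 with a median of 11.92 in T4R. T4R lay above all T4 and all S1 samples, by 0.76 ± 0.13 against T4 (adjusted p = 0.00177) and 0.59 ± 0.11 against S1 (adjusted p = 0.00234), while T4 minus S1 was -0.17 ± 0.14 (adjusted p = 0.415). In the first table alone, NDUFB1 was 0.36 above S1 and did not pass (adjusted p = 0.1003). NDUFB3 measured 10.68, 10.98 and 10.09 in S1, 11.17, 11.19 and 11.38 in T4, and 11.14 to 11.55 with a median of 11.32 in T4R, and both T4 and T4R lay wholly above S1. It rose by 0.56 ± 0.15 in T4 (adjusted p = 0.0152) and by 0.82 ± 0.13 in T4R against S1 (adjusted p = 0.000479). NDUFAB1, the mitochondrial acyl carrier protein, had the smallest T4 minus S1 difference, 0.00 ± 0.16 (adjusted p = 1). It measured 11.45, 11.71 and 10.97 in S1, 11.36, 11.30 and 11.73 in T4, and 11.15 to 11.63 with a median of 11.45 in T4R.

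**Figure D2:**
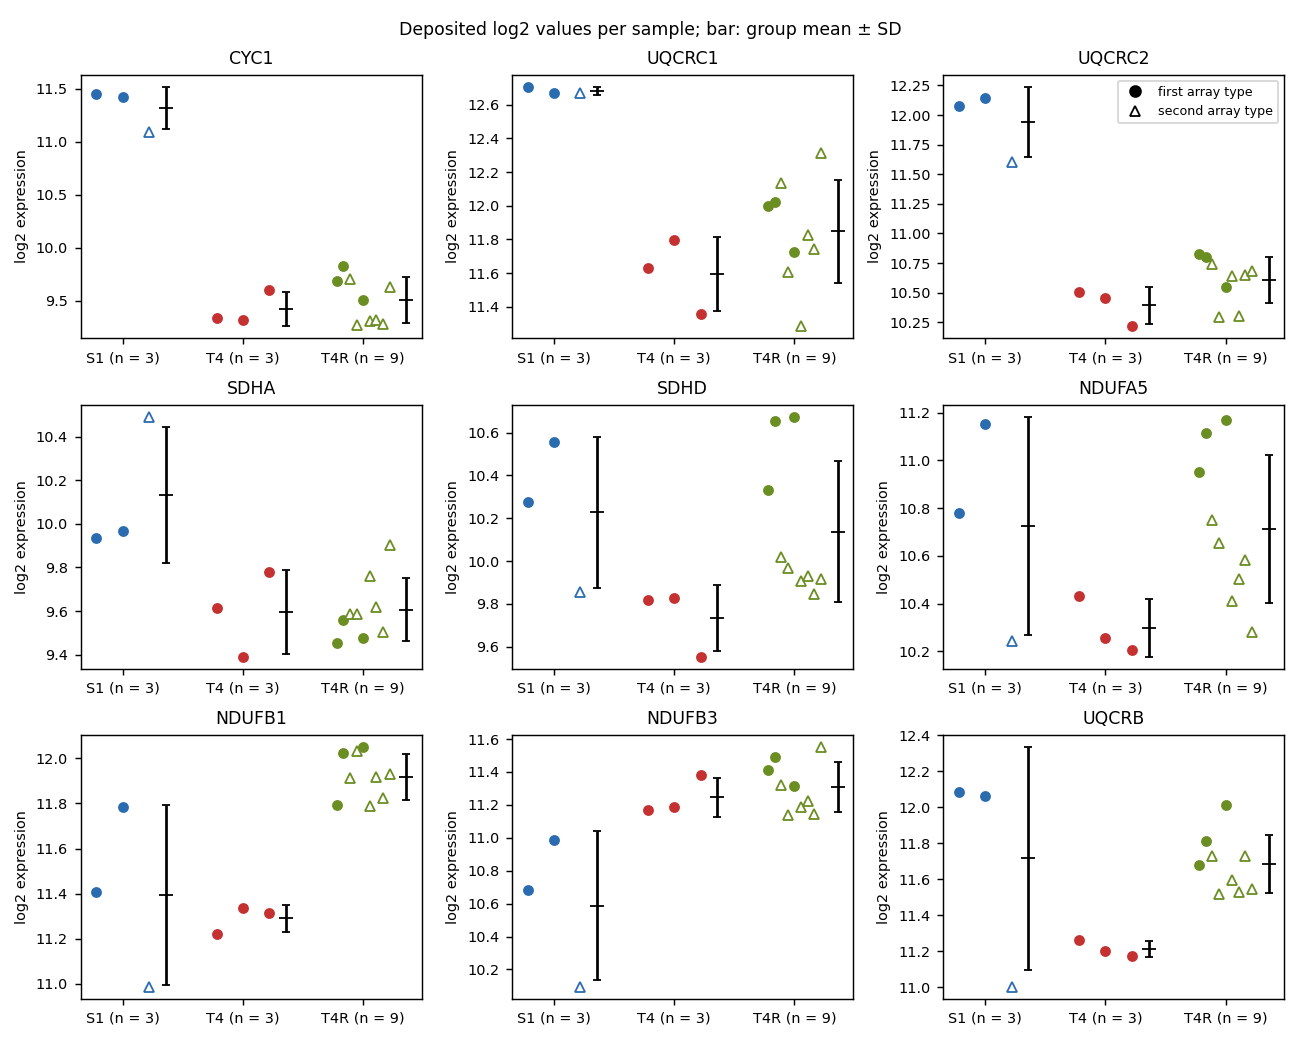
Deposited log2 values of 9 genes in every sample, with filled circles for the first array type, open triangles for the second, and the group mean with SD at the right of each group. CYC1, UQCRC1, UQCRC2 and SDHA have T4R samples below all S1 samples, SDHD, UQCRB and NDUFB1 have T4R samples above all T4 samples, and SDHD and NDUFA5 separate by array type.

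Complex IV, cytochrome c oxidase, was lower in T4 in 5 of its 11 tested genes. At an unadjusted p under 0.05 the limma fit had 8 lower and 0 higher, where 17.6% of all genes were lower and 20.7% higher. COX5B, a matrix-side subunit, measured 11.60, 11.85 and 11.25 in S1, 10.90, 10.98 and 10.79 in T4, and 10.51 to 11.57 with a median of 11.36 in T4R. Its T4 samples lay below S1 (-0.84 ± 0.21, adjusted p = 0.00858), and T4R spanned both groups in these deposited levels. After removal of the table term, the lowest T4R sample was 0.108 and the highest T4 sample 0.086 above the T4 mean. T4R minus T4 was 0.55 ± 0.19 and did not pass (adjusted p = 0.0703). Other probe sets of COX5B gave 0.54, 0.68 and 0.14 (adjusted p over all probe sets = 0.041, 0.0184 and 0.254). COX6C, a small membrane subunit, measured 11.89, 12.14 and 11.68 in S1, 11.18, 11.12 and 11.40 in T4, and 11.07 to 11.77 with a median of 11.43 in T4R. It was -0.78 ± 0.14 in T4 (adjusted p = 0.00129) and -0.40 ± 0.12 in T4R (adjusted p = 0.024) against S1. COX7B measured 12.49, 12.67 and 11.88 in S1, 11.66, 11.71 and 12.06 in T4, and 11.52 to 12.60 with a median of 12.18 in T4R, and S1 sample 3 lay within the T4 range. Its difference of -0.65 ± 0.22 (adjusted p = 0.0414) did not pass with the sample number as a block (adjusted p = 0.0546), nor without any 1 of S1 samples 1 and 2 and T4 samples 1 and 2 (adjusted p = 0.1105, 0.171, 0.116 and 0.102), nor without any 1 of 4 T4R samples (adjusted p up to 0.0575). COX7C (-0.64 ± 0.13, adjusted p = 0.00289) and COX8A (-0.45 ± 0.13, adjusted p = 0.0228) were the other genes lower in T4. By the probe sets used, COX7C was the gene of this complex that passed in T4R against T4 (0.49 ± 0.12, adjusted p = 0.016). For COX4I1 the probe set used gave 0.31, and others gave 0.37 and 0.39 (adjusted p over all probe sets = 0.129, 0.0305 and 0.16). COX6B1, on the intermembrane side, had the smallest T4 minus S1 difference, -0.02 ± 0.15 (adjusted p = 0.957). It measured 12.27, 12.36 and 11.89 in S1, 12.21, 12.27 and 12.23 in T4, and 11.91 to 12.69 with a median of 12.45 in T4R.

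Complex V makes ATP in its F1 head and conducts protons through its Fo part. In T4, 2 of 5 F1 genes and 3 of 11 genes of Fo and the stalk were lower. ATP5F1A, the alpha subunit of the head, measured 12.38, 12.56 and 12.83 in S1, 11.92, 12.11 and 11.94 in T4, and 11.85 to 12.56 with a median of 12.35 in T4R, and T4 lay wholly below S1. It was -0.65 ± 0.18 in T4 (adjusted p = 0.0167), beside the beta subunit ATP5F1B at -0.54 ± 0.17 (adjusted p = 0.0321). The ATP5F1A call was lost with quantile normalization within tables (adjusted p = 0.0516) and with the 3 samples named above left out together (adjusted p = 0.0764), and ATP5F1B passed in 22 of 28 settings. ATP5PD, of the stalk, measured 12.33, 12.46 and 12.12 in S1, 11.72, 11.78 and 11.69 in T4, and 11.45 to 12.22 with a median of 12.02 in T4R. Its T4 minus S1 difference was -0.64 ± 0.15 (adjusted p = 0.00608), and that of the stalk gene ATP5PB was -0.53 ± 0.10 (adjusted p = 0.00199). ATP5ME measured 11.81, 12.01 and 11.09 in S1, 11.005, 11.02 and 11.35 in T4, and 10.82 to 11.38 with a median of 11.27 in T4R, and its groups overlapped. Its difference of -0.60 ± 0.19 (adjusted p = 0.0274) was lost without any 1 of S1 samples 1 and 2 and T4 samples 1 and 2 (adjusted p = 0.0996, 0.156, 0.0833 and 0.0775). ATP5F1C, the central gamma subunit, did not pass (0.03 ± 0.18, adjusted p = 0.921). It measured 12.47, 12.39 and 11.73 in S1, 12.35, 12.35 and 12.13 in T4, and 12.14 to 12.74 with a median of 12.35 in T4R. ATP5IF1, which inhibits the synthase when it runs backwards, is no subunit and also fell, from 9.82, 9.89 and 9.20 in S1 to 8.97, 9.02 and 8.86 in T4 (-0.76 ± 0.14, adjusted p = 0.00132). Its T4R samples, at 9.30 to 9.68, lay above every T4 sample (0.68 ± 0.13, adjusted p = 0.00359).

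In T4R against T4, 16 of the 71 genes were higher and none was lower, where 6.46% of all genes tested were higher, 8.44% lower and 14.9% either. At an unadjusted p under 0.05, the same limma fit had 35 higher and 0 lower, where 13.1% of all genes were higher and 15.3% lower. The median difference was 0.32, against -0.0041 for all genes tested, and 66 of 71 differences were above zero. The genes that passed numbered 8 in complex I, 1 in complex II, 2 in complex III, 1 in complex IV, 3 in complex V (ATP5MG, ATP5PB and ATP5PF) and 1 outside the complexes (ATP5IF1). Every T4R sample lay above every T4 sample in 8 genes (11.3% of members, 6.76% of all genes) and below in none (8.41% of all genes): NDUFV1, NDUFA2, NDUFB1, NDUFB5, SDHD, UQCRB, ATP5PF and ATP5IF1. These are deposited levels, so agents of the second table were set against T4 samples of the first. After removal of the table term the 8 genes kept this order. Others then had it too, such as NDUFA5 (lowest T4R 0.58 and highest T4 0.14 from the T4 mean) and UQCRH (0.30 and 0.04). The matching share of all genes was not counted. In the first table alone, 27 genes were higher and none lower, against 6.93% and 8.39% of all genes, and at an unadjusted p under 0.05 that limma fit had 44 higher and 0 lower, where 14.1% of all genes were higher and 16.3% lower. Without T4 sample 1, 10 genes were higher, and with the same 3 samples left out together 23 were, where 19.6% of all genes passed in either direction. ATP5MG is uncertain: the probe set used gave 0.43, and another gave 1.39. In T4 minus S1 that other one gave -1.04 (adjusted p over all probe sets = 0.0261), and the one used gave -0.04. Its T4R minus S1 difference of 0.35 did not pass (adjusted p over all probe sets = 0.407). The remaining probe sets of ATP5MG gave -0.02 and 0.05 in T4 minus S1, near the one used.

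Against S1, T4R had 9 lower and 3 higher genes, where 11.4% of all genes tested were lower, 11.8% higher and 23.2% either, so the lower share was near that of all genes. The median difference was -0.02. The lower genes were CYC1, UQCRC1 and UQCRC2 in complex III, SDHA in complex II, NDUFS4, NDUFB8, NDUFA3 and NDUFV1 in complex I, and COX6C in complex IV. The higher genes were NDUFB3, NDUFB1 and ATP5MG. All T4R samples lay below all S1 samples in 5 genes, NDUFS4, SDHA, CYC1, UQCRC1 and UQCRC2 (7.04% of members, 7.46% of all genes), and above in NDUFB1 and NDUFB3 (2.82%, against 8.13%). In the first table alone, 13 were lower and 1 higher, against 10.4% and 9.55% of all genes. The count of higher genes was 1 without S1 sample 3 and 5 without dominant-negative Rap1. With the 3 samples left out together, 15 genes were lower and 4 higher, where 30.4% of all genes passed in either direction. The call for NDUFA6 is uncertain, since a probe set that was not used passed with the other sign (0.63, where the one used had -0.02, adjusted p over all probe sets = 0.0106).

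The 3 comparisons share their samples, so their values are set side by side here and not related to each other. For CYC1 the T4 minus S1, T4R minus T4 and T4R minus S1 differences were -1.99, 0.27 and -1.73. For UQCRC1 they were -1.11, 0.30 and -0.81, and for SDHA -0.45, -0.16 and -0.61. For SDHD they were -0.70, 0.81 and 0.11, for NDUFA5 -0.62, 0.81 and 0.19, and for UQCRB -0.65, 0.76 and 0.11.

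**Figure D3:**
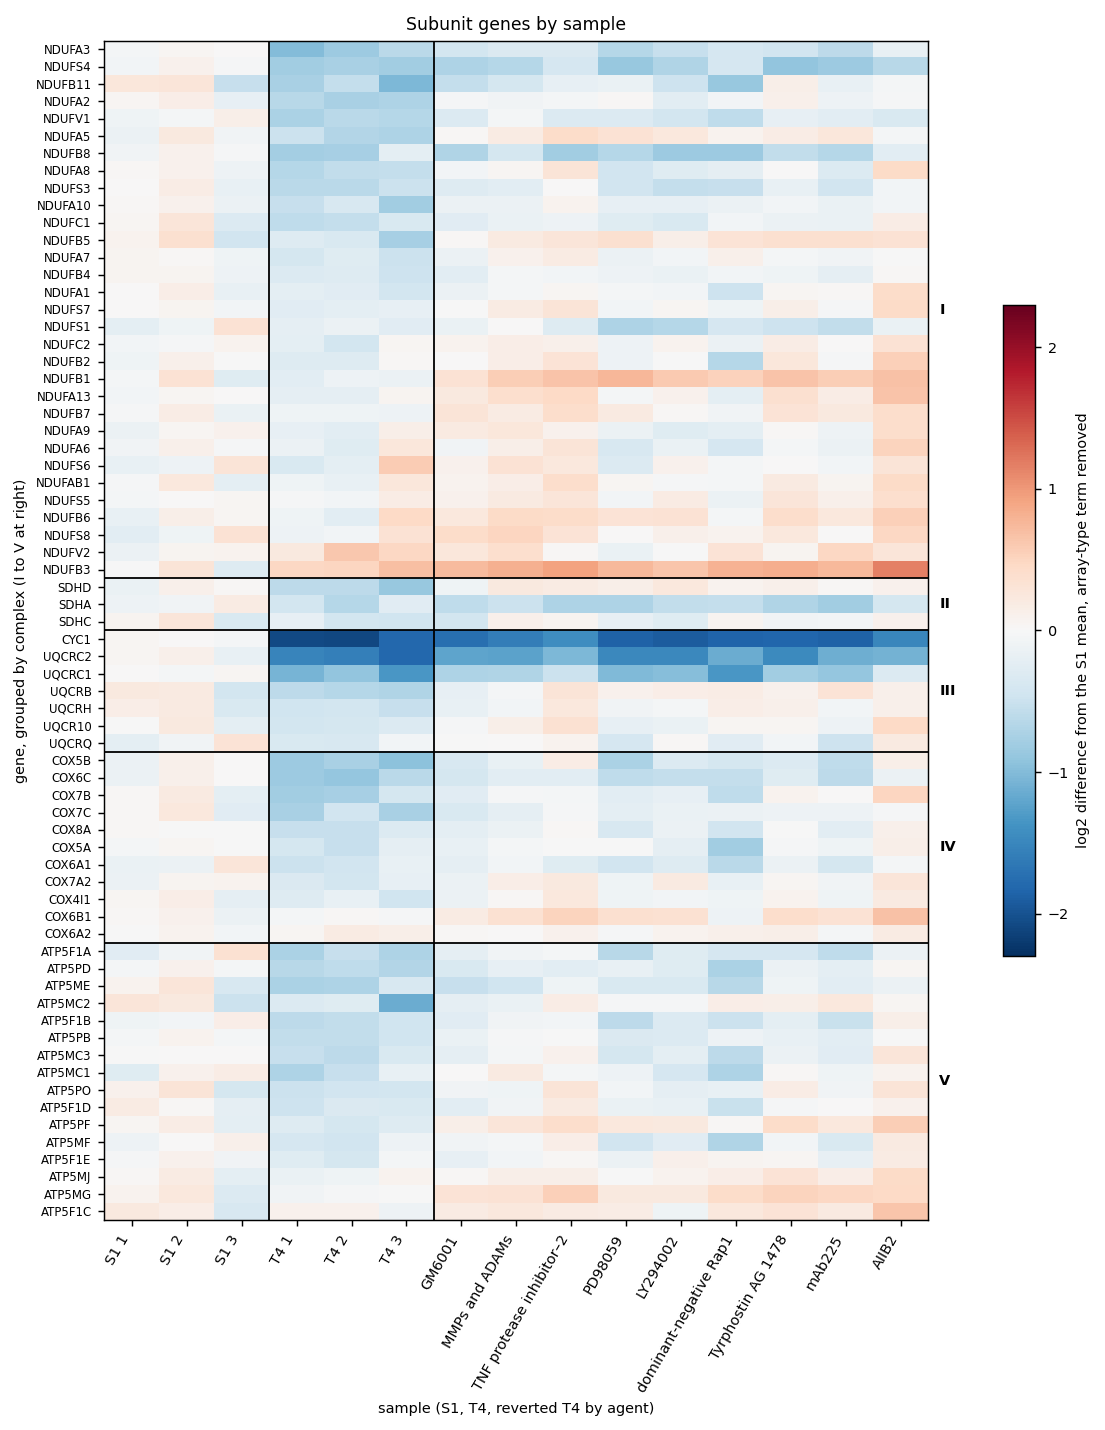
Log2 difference of each of the 68 subunit genes tested from the S1 mean, after removal of the fitted table term, with genes in rows grouped by complex (I to V) and samples in columns: 3 S1, 3 T4 and 9 T4R named by agent. Red is above and blue below S1. The T4 columns are mostly blue, the T4R columns are paler, and the CYC1, UQCRC2 and UQCRC1 rows are blue in T4 and T4R.

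How far the genes stood above T4 with each agent is given as a description, with 1 sample each. After removal of the table term, the median difference from the T4 mean over the 71 genes was 0.54 with AIIB2 and 0.50 with TNF protease inhibitor–2. It was 0.37 with MMPs and ADAMs and also with Tyrphostin AG 1478, 0.28 with GM6001, 0.24 with LY294002 and with mAb225, 0.19 with PD98059 and 0.14 with dominant-negative Rap1. The same median over all genes tested lay between -0.019 and 0.0014 in each T4R sample. With AIIB2, 70 of the 71 genes were above the T4 mean, and with dominant-negative Rap1, 46 were. Values of the 6 agents in the second table depend on the fitted table term.

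Within a table no such term is needed. In the first, the sample with MMPs and ADAMs was the highest of the 3 T4R samples in 51 of 71 genes (71.8%), against 28.8% of all genes tested. LY294002 was the lowest there in 35 (49.3%), against 39.3%, and GM6001 in 34 (47.9%), against 27.5%. In the second, AIIB2 was the highest of 6 in 43 genes (60.6%), against 19.2%, dominant-negative Rap1 the lowest in 31 (43.7%), against 27.5%, and PD98059 the lowest in 28 (39.4%), against 15.0%. UQCRC1 gives an example: 12.31 with AIIB2 and 11.28 with dominant-negative Rap1. The sample with dominant-negative Rap1 also differed in some epithelial genes. Its KRT18 level of 11.57 lay within the T4 range of 11.38 to 11.81, where the other T4R samples had 10.41 to 10.85, and its CDH1 level of 9.34 was the lowest of the 15. EPCAM, at 7.51, was the lowest of T4R and within the T4 range. KRT5 and KRT14, at 13.47 and 13.98, lay close to the next lowest T4R samples, and KRT8 and KRT19 lay within the other T4R samples. CDH1 with LY294002, at 9.96, also lay within the T4 range of 9.75 to 10.20. The part of this in the levels above was not tested.

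**Figure D4:**
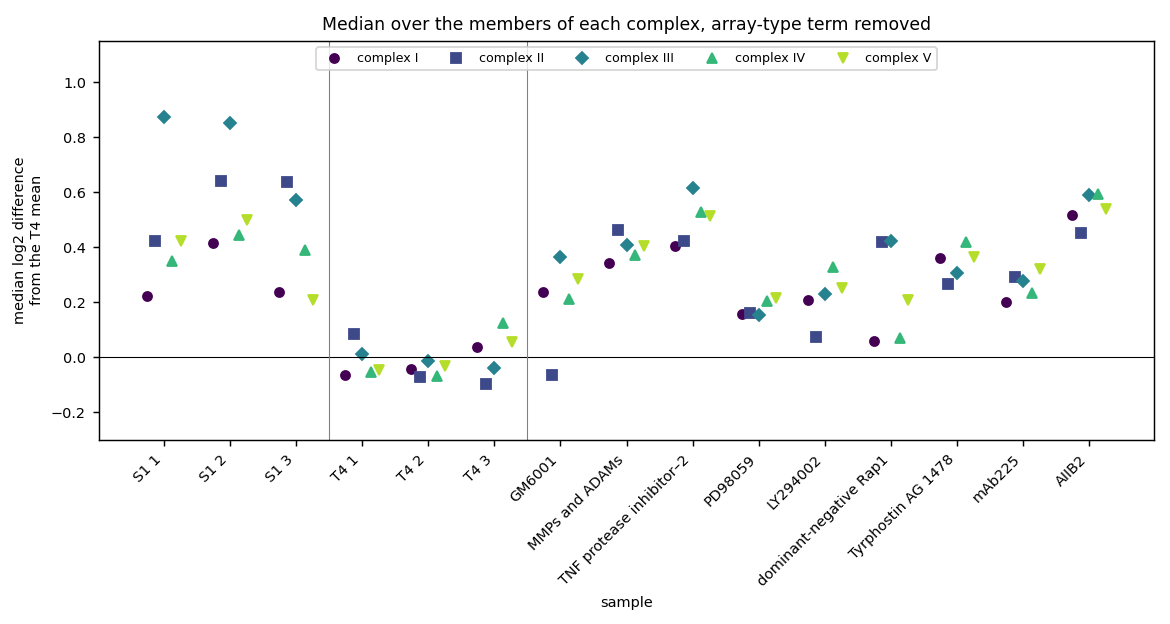
Median log2 difference from the T4 mean over the members of each complex in each of the 15 samples, after removal of the fitted table term, with 1 symbol and colour per complex. The S1 and T4R medians lie mostly above zero, and complex III is the highest in S1 samples 1 and 2. Among the T4R samples AIIB2 and dominant-negative Rap1 give the highest and lowest medians over all members (0.54 and 0.14), and also in complexes I, IV and V. In complex III TNF protease inhibitor–2 is highest (0.61) and PD98059 lowest (0.15), with dominant-negative Rap1 at 0.42. In complex II MMPs and ADAMs is highest (0.46) and GM6001 lowest (-0.066).

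Other nuclear genes for mitochondrial functions were counted in the same fit. The shares to set beside the counts of every list below are those of all genes tested. In T4 against S1, 12.3% were lower and 14.6% higher, and in T4R against T4, 6.46% were higher and 8.44% lower. Assembly factors, which build the complexes, had 9 of 30 lower and 1 higher in T4 against S1, and 7 higher in T4R against T4. UQCC1, an assembly factor of complex III, fell in T4 by 1.52 ± 0.19 (adjusted p = 7.69e-05), and OXA1L, which inserts proteins into the inner membrane, by 0.82 ± 0.25 (adjusted p = 0.0287). UQCC1 was also lower in T4R than in S1 (-1.06 ± 0.16, adjusted p = 0.000348). Of 14 citric acid cycle and pyruvate dehydrogenase genes, 8 were lower in T4, and 2 were higher in T4R than in T4. IDH3A, a subunit of isocitrate dehydrogenase, was at -1.37 ± 0.20 (adjusted p = 0.000264) and DLD, the lipoamide dehydrogenase shared by several of these enzymes, at -0.96 ± 0.12 (adjusted p = 8.98e-05).

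Genes of the mitochondrial ribosome, which makes the subunits encoded in mitochondria, had 17 of 48 lower and 1 higher in T4, with MRPL13 at -1.01 ± 0.18 (adjusted p = 0.000951) and MRPL57 at -1.01 ± 0.10 (adjusted p = 1.35e-05). In T4R against T4, 6 of these were higher and 1 lower. Carriers and channels for ATP exchange had 1 higher (VDAC1, the outer membrane channel, 0.37 ± 0.12, adjusted p = 0.0305) and 1 lower (SLC25A4, an ADP/ATP carrier, -0.49 ± 0.15, adjusted p = 0.0288) of 7. In T4R against T4, SLC25A4 was the 1 higher (0.85 ± 0.14, adjusted p = 0.00172) and VDAC1 the 1 lower (-0.48 ± 0.11, adjusted p = 0.00877). Regulators of mitochondrial gene expression had 5 of 13 higher and 2 lower in T4. PPRC1, a coactivator related to PGC-1, rose by 0.90 ± 0.20 (adjusted p = 0.00524) and the transcription factor MYC by 0.95 ± 0.33 (adjusted p = 0.0446). In T4R against T4, 2 regulators were lower, and PPRC1 was one of them (-0.81 ± 0.19, adjusted p = 0.0116). Medians in T4 against S1 were -0.57 for citric acid cycle and pyruvate dehydrogenase genes, -0.20 for the ribosome, -0.18 for assembly factors and 0.21 for regulators, beside -0.39 for the oxidative phosphorylation genes.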

How the data were processed

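The authors deposited log2 expression values for 22215 probe sets in 2 tables, one per array type. Per the labels, Trizol was used for RNA extraction and biotin for labelling. No source used here gives the summarisation, the normalization or whether it joined both tables. Values range from 6.21 to 14.5, with sample medians of 7.3 to 7.4. Probe sets with 1 gene in the platform annotation were used, the probe set of highest mean standing for its gene, and 25% of genes, those of lowest mean, were not tested. Symbols were updated through RefSeq. Of 102 probe sets of the 72 members, 72 were used.

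The fit was limma 3.58.1 in R 4.3.3 (lmFit, eBayes, 2-sided, Benjamini-Hochberg), with 3 groups (S1, T4, T4R) and a block for the table. Group values are deposited levels and differences are fitted. In simulated data for T4 against S1 over 9111 genes, the fit recovered 51.9% of genes changed by 0.5, 87.9% of those changed by 1 and 96.9% of those changed by 2 on the log2 scale. The number of arrays limits the precision.

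Genes with values in every sample were, per complex, the 3 largest T4 minus S1 differences that passed and the smallest difference (complex II: all), the 5 largest T4R minus T4 and the 3 largest T4R minus S1 differences, and of the other lists the 2 largest that passed. ATP5IF1 was added after its values were seen. The members and lists were chosen with earlier results of these data known.

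Sample numbers pair S1 and T4 by rule: deviations from the group means correlated at 0.282, 0.315 and 0.391 for the numbers 1, 2 and 3. Crossed numbers 1 and 2 correlated at 0.314 and 0.289, so those 2 are not told apart. Alternatives were other treatments of the table, probe set choice, filter, normalization, array weights, the number as a block, and leaving out each sample. A fit without dominant-negative Rap1 and without the samples numbered 3 of S1 and T4 was added after seeing the data.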

Additional observations from a re-analysis of the deposited data

Results flagged for a closer look

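Within the 9 T4R samples, 1 sample lay apart from the others in 5 of the genes described with values, by Dixon's test. The sample with dominant-negative Rap1 was the low one in 4 of them. NDUFB11 was 9.523 there, where the other 8 T4R samples lay between 10.03 and 10.53, COX6B1 was 11.91 against 12.36 to 12.69, ATP5ME was 10.82 against 11.1 to 11.38, and ATP5PD was 11.45 against 11.93 to 12.22. SDHC was high with MMPs and ADAMs, at 10.91 against 10.21 to 10.52 in the others. Chance flags about 1 in 20 groups. Over all 71 genes tested, 7 were flagged in T4R, and the further ones, COX5A at 10.48 and ATP5F1D at 9.371, were low with dominant-negative Rap1. The values are deposited levels, to which both array types contribute.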

How the results depend on the processing

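No gene that passed the test changed direction in the settings run. Among genes that did not pass, the sign changed in at least 1 setting for 13 genes in T4 against S1, 8 in T4R against T4 and 38 in T4R against S1. The median T4R minus S1 difference, -0.02, was also above zero without S1 sample 2 (0.019) and without LY294002 (0.0015). It was further below zero without S1 sample 3 and on the first table alone (-0.14 in both). With array weights it was -0.12, and with the tables quantile-normalized together and no table term -0.11. Of the 31 genes lower in T4 than in S1, 14 passed in each of 28 settings: CYC1, UQCRC1, UQCRC2, NDUFA2, NDUFA3, NDUFA10, NDUFB4, NDUFS4, NDUFV1, COX6C, COX7C, ATP5PB, ATP5PD and ATP5IF1. Of the 16 genes higher in T4R than in T4, 6 passed in each of 25, and of the 9 genes lower in T4R than in S1, 3 passed in each of 26 (CYC1, SDHA and UQCRC2). Array weights raised the counts to 49 lower and 2 higher in T4 against S1, 48 higher in T4R against T4, and 21 lower and 5 higher in T4R against S1, with 45.9%, 34.7% and 42.3% of all genes called. The count of 1 gene higher in T4 became 2 with the table as a random block or with a replicate block in its place, and 0 with S1 and T4 alone or without the 3 samples left out together. Without those 3, T4R had 15 genes lower than S1. With the tables quantile-normalized together and no table term, 8 genes were higher in T4R than in T4. The first table alone gave 27 genes there and 1 higher in T4R than in S1, and the second alone 8 higher and 4 lower, with a median T4R minus S1 difference of 0.08. Quantile normalization within each table gave 5 higher. Leaving out 1 sample gave 20 (S1 sample 2) to 40 (S1 sample 3) lower and 0 (T4 sample 3) to 2 higher genes in T4 against S1. The share of all genes that passed in either direction moved too. It was 18.5% without S1 sample 2 and 29.5% without S1 sample 3, against 26.9% in the main fit. Leaving out 1 sample also gave 10 (T4 sample 1) to 20 (dominant-negative Rap1) higher in T4R against T4, and 7 to 10 lower and 1 (S1 sample 3) to 5 (dominant-negative Rap1) higher in T4R against S1. With the replicate block, 33 genes were lower in T4 with the table in the fit and 21 without it, where SDHD, COX5B, ATP5ME and COX7B lost their calls (adjusted p = 0.130, 0.0734, 0.0782 and 0.149). Of all genes, 29.9% passed in either direction with the table and 27.1% without it. The causes were not tested.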
